A study of Mus musculus with 12 samples.

Results

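The 10 genes described here encode parts of the TGF-beta pathway. They are the ligands *Tgfb1* and *Tgfb3*, the receptors *Tgfbr1*, *Tgfbr2*, and *Tgfbr3*, the signal carrier *Smad3*, the inhibitory *Smad7*, the corepressors *Ski* and *Skil*, and the decoy receptor *Bambi*. They were chosen by gene symbol, and all 10 were found in the count tables and among the 16035 genes with enough reads to be tested. The RNA came from CD4+ T cells without the YFP that reports FOXP3, sorted from spleen pooled with the inguinal and cervical lymph nodes. The mice were 14 weeks old, and each of the 3 groups had 4 libraries. The control group, WT, carried the *Foxp3*-driven Cre without floxed alleles (Foxp3Cre WT). DKO-moderate and DKO-severe mice shared the genotype Foxp3-Cre Tet2/3 fl/fl, in which Cre removes *Tet2* and *Tet3*, and they were separated by how many cells their spleens and lymph nodes held. Cre is driven by *Foxp3*, and the study describes this Cre as leaky. The sorted FOXP3-negative cells of DKO mice may therefore hold former regulatory T cells, conventional CD4+ T cells with intact alleles, and conventional cells that lost *Tet2* and *Tet3*, in shares that were not measured here. The severity split was made on the disease itself, and both DKO groups were compared with the same WT libraries. The study found more female mice among DKO-severe than among DKO-moderate animals, the labels do not give the sex behind each library, and its part in the results was not tested.

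TGF-beta is secreted in a latent form and must be released before it can act. Active TGF-beta binds TGFBR2, which recruits and phosphorylates TGFBR1, and TGFBR1 in turn phosphorylates SMAD2 and SMAD3, which enter the nucleus with SMAD4. In CD4+ T cells this signal restrains the activation of naive cells, supports the induction of FOXP3, and takes part in Th17 differentiation. SMAD7, SKI, SKIL, and BAMBI each damp the signal at a different step.

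Each library had between 29254260 and 42133536 reads on genes. Values are given as CPM, read counts scaled to a common library total after TMM normalization, and the groups were compared in edgeR (quasi-likelihood test, all 12 libraries in the fit), with a threshold of 0.05 on the Benjamini-Hochberg adjusted p over all tested genes. Summed CPM of 8 general T cell genes were 4506 to 5141 for WT, 5149 to 5343 for DKO-moderate, and 4160 to 4638 for DKO-severe, so the libraries carried T cell transcripts throughout. Summed CPM of 10 naive T cell genes were 6693 to 7287 in WT and 2101 to 2820 in DKO-severe. Transcripts of other cells were also present. The sum over 11 neutrophil genes was at most 1.98 CPM in WT, where *Elane* and *Ly6g* had no read, 0.19 to 8.53 CPM in DKO-moderate, and 2245, 826.3, 23.73, and 10.17 CPM in DKO-severe 1 to 4, and all 11 genes rose in DKO-severe. Summed B cell genes stood at 264.7 CPM in WT 3, at 10.11 to 18.94 CPM in the other WT libraries, at 21.81 to 49.65 CPM in DKO-moderate, and at 70.53 to 438.8 CPM in DKO-severe (1 of 10 higher in DKO-severe). Summed monocyte and macrophage genes were 29.8 to 257.2 CPM in WT, 84.76 to 168.2 CPM in DKO-moderate, and 169 to 686.9 CPM in DKO-severe (4 of 11 higher). Summed regulatory T cell genes were 145.4 to 256.4 CPM in WT, 435.8 to 724.8 CPM in DKO-moderate, and 820.2 to 917.8 CPM in DKO-severe. *Foxp3*, the defining gene of that list, went against the sum, with 1.01, 3.1, 1.03, and 1.56 CPM for WT, 0.98, 1.7, 0.84, and 0.29 CPM for DKO-moderate, and 0.13, 0.43, 0.83, and 0.14 CPM for DKO-severe. In bulk RNA, fewer cells of a type and less RNA per cell cannot be told apart.

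In DKO-severe cells the receptor chain *Tgfbr2*, the coreceptor *Tgfbr3*, *Smad3*, and 3 of the 4 damping genes, *Smad7*, *Ski*, and *Bambi*, were lower than in WT, and *Tgfb3* was higher. The transcripts of *Tgfb1*, *Tgfbr1*, and *Skil* did not pass the test. Thus 7 of the 10 members passed (1 higher, 6 lower) where 52.6% of all tested genes did, and a count of this size by itself says little about the members. Split by direction, 26.6% of all tested genes were higher and 25.9% lower. The median log2 fold change was -0.75 over the members and -0.01 over all tested genes. In DKO-moderate against WT, 4 of the 10 passed (*Tgfb3* higher, *Tgfbr2*, *Tgfbr3*, and *Smad7* lower), beside 17.1% of all tested genes (12.3% higher, 4.74% lower). In DKO-severe against DKO-moderate, 5 of the 10 passed, all lower (*Tgfbr2*, *Tgfbr3*, *Smad3*, *Smad7*, and *Bambi*), beside 20.1% of all tested genes in either direction (9.41% higher, 10.7% lower). The groups did not overlap for 7, 5, and 4 members in these 3 comparisons, where 51.9%, 24.8%, and 21.3% of all tested genes did not overlap.

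**Figure D1:**
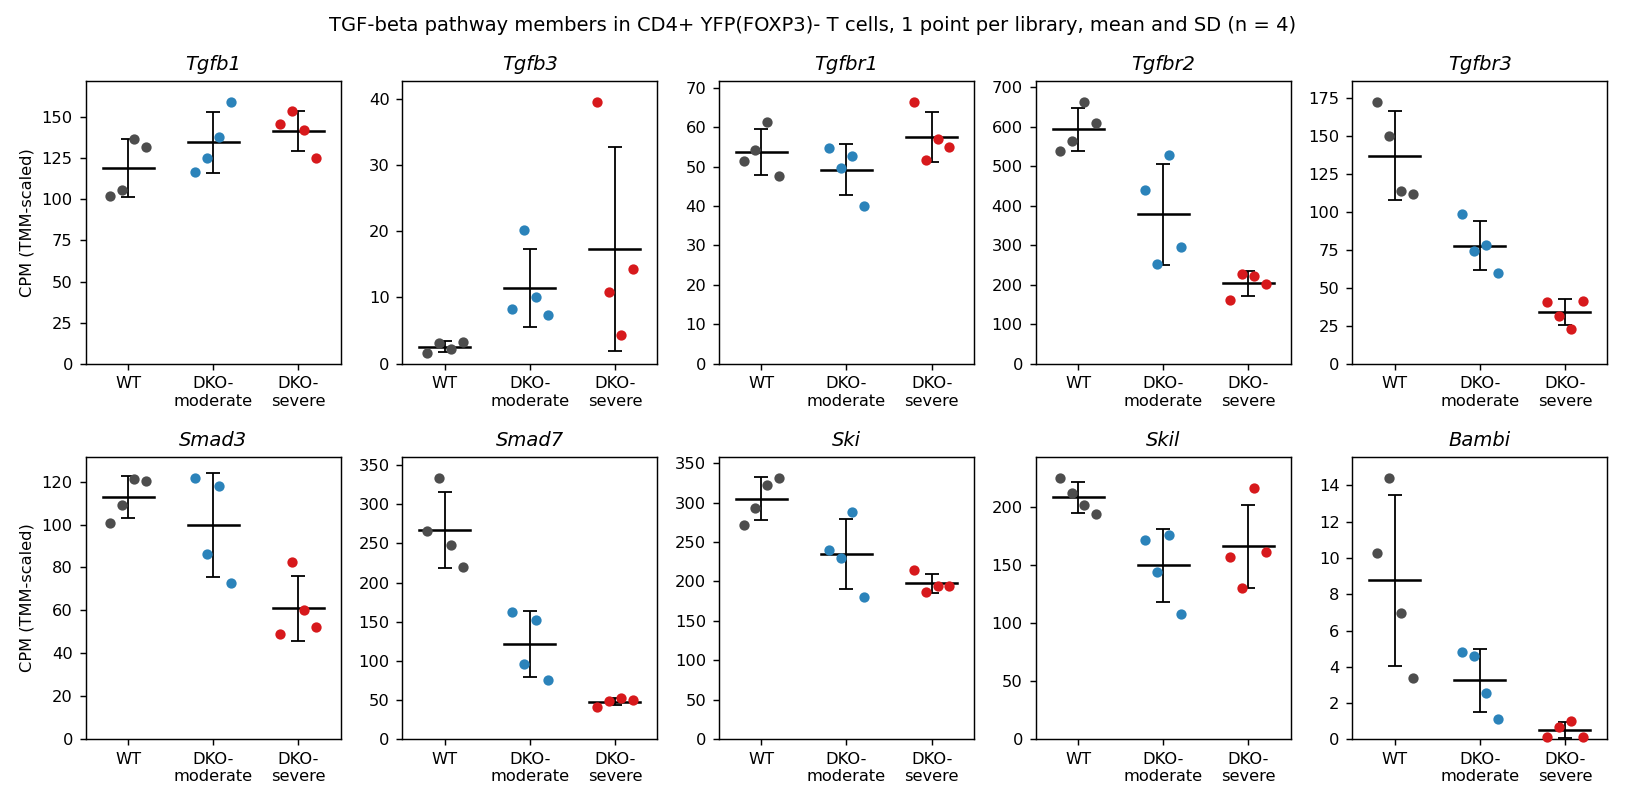
CPM (vertical axes, from 0) of the 10 members in the 12 libraries, 1 point per library, with the group mean as a line and the SD as a bar (n = 4). *Tgfbr2*, *Tgfbr3*, and *Smad7* step down from WT to DKO-moderate to DKO-severe without overlap, *Bambi* nears 0 in DKO-severe, and *Tgfb3* is above every WT library in all 8 DKO libraries.

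Among the ligands, *Tgfb1* (chr7:25687002-25705077, GRCm38) encodes the main TGF-beta of lymphocytes. It was counted at 101.8, 105.6, 136.9, and 131.8 CPM for WT, 116.5, 125.3, 137.6, and 159.2 CPM for DKO-moderate, and 145.6, 153.8, 142.3, and 125.1 CPM for DKO-severe. The groups overlapped, with the lowest values in WT 1 and WT 2. In DKO-severe against WT its log2 fold change was 0.25 (SE 0.12, edgeR adjusted p = 0.104), and in DKO-moderate it was 0.18 (SE 0.12, edgeR adjusted p = 0.339). The call depended on the scaling and the tool, since *Tgfb1* passed in DKO-severe with DESeq2 (0.33, adjusted p = 0.0285), with edgeR on library sizes without TMM (0.43, adjusted p = 0.0171) or on DESeq2's size factors (0.33, adjusted p = 0.0424), and with limma voom (0.29, adjusted p = 0.0406).

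*Tgfb3* (chr12:86056745-86079041), a related ligand that uses the same receptors, overlaps *Ttll5* on the opposite strand, and the counting used strand. It was counted at 1.55, 3.13, 2.24, and 3.33 CPM in WT. The DKO-moderate libraries held 8.21, 20.17, 10.11, and 7.36 CPM, and the DKO-severe libraries 39.49, 10.81, 4.33, and 14.34 CPM. All 8 DKO libraries were above all 4 WT libraries, and the widest spread was in DKO-severe, where the highest and the lowest library were DKO-severe 1 and DKO-severe 3. On the log2 scale *Tgfb3* was higher by 2.75 in DKO-severe (SE 0.59, edgeR adjusted p = 0.00217) and 2.16 in DKO-moderate (SE 0.58, edgeR adjusted p = 0.0242). Without DKO-severe 1 the first value was 1.94 (edgeR adjusted p = 0.00489). DKO-severe and DKO-moderate overlapped (0.59, SE 0.55, edgeR adjusted p = 0.461), and without DKO-severe 1 that difference turned to -0.22. The DKO-moderate call was lost without WT 1, WT 2, WT 3, or DKO-moderate 2 (edgeR adjusted p from 0.055 to 0.0778).

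DKO-severe 1 was also the library with the largest sum of neutrophil genes (2245 CPM), and DKO-severe 2 followed (826.3 CPM). DKO-severe 3, with a sum of 23.73 CPM, had the lowest *Tgfb3* of the DKO libraries (4.33 CPM), and DKO-severe 4, with 10.17 CPM, had 14.34 CPM. In DKO-moderate the sum was at most 8.53 CPM and *Tgfb3* at least 7.36 CPM. With terms for the neutrophil and B cell genes in the fit, the *Tgfb3* value in DKO-severe against WT was 0.77 and did not pass (SE 0.74, edgeR adjusted p = 0.499). Leaving out WT 3, DKO-severe 1, and DKO-severe 2, a choice made after the marker sums were seen, gave 1.81 on the log2 scale for DKO-severe (edgeR adjusted p = 0.0289). Of 7 platelet genes, *Pf4*, *Ppbp*, *Gp9*, and *Treml1* had at most 4, 7, 2, and 5 reads in any library. The summed list was 168.3 to 199.7 CPM in WT, 63.39 to 123.1 CPM in DKO-moderate, and 33.16 to 89.59 CPM in DKO-severe, of which *Itgb3* alone gave 166.1 to 197.6, 61.37 to 121.1, and 31.41 to 88.44 CPM. The part of platelets in the ligand values was not tested.

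The type I receptor *Tgfbr1* (chr4:47353222-47414931), the kinase that phosphorylates SMAD2 and SMAD3, did not pass in any comparison. It was at 51.52, 54.3, 61.38, and 47.64 CPM for WT, 54.62, 49.58, 52.61, and 40.03 CPM for DKO-moderate, and 66.39, 51.63, 57.03, and 54.93 CPM for DKO-severe, and all 3 groups overlapped. The log2 fold changes against WT were 0.10 in DKO-severe (SE 0.12, edgeR adjusted p = 0.495) and -0.13 in DKO-moderate (SE 0.12, edgeR adjusted p = 0.481). Scaled by library sizes without TMM it passed in DKO-severe against WT (0.28, edgeR adjusted p = 0.0434) and against DKO-moderate (0.33, edgeR adjusted p = 0.0486), a scaling that moved the median of all tested genes to 0.18 and 0.079 in these comparisons.

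The type II receptor *Tgfbr2* (chr9:116084293-116175360), whose product binds the ligand first, was at 539.3, 563.8, 663.2, and 610.2 CPM for WT, 438.9, 252.0, 528.5, and 294.8 CPM for DKO-moderate, and 161.1, 228.3, 223.0, and 200.8 CPM for DKO-severe. No 2 groups overlapped, although DKO-moderate 3 came close to WT and DKO-moderate 2 close to DKO-severe. The DKO-severe mean was 34.2% of the WT mean and the DKO-moderate mean 63.7%. The log2 fold change was -1.55 in DKO-severe against WT (SE 0.21, edgeR adjusted p = 9.19e-05) and -0.90 in DKO-severe against DKO-moderate (SE 0.21, edgeR adjusted p = 0.0124).

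The DKO-moderate difference from WT was -0.65 (SE 0.20, edgeR adjusted p = 0.0471), a call close to the threshold that was lost in 8 of the 12 fits that left out 1 library, each of the 4 WT libraries included (highest edgeR adjusted p 0.108). The call in DKO-severe against WT held in all 12 of those fits, with log2 fold changes from -1.59 to -1.45. The exact permutation test on CPM gave p = 0.029 in each of the 3 comparisons, the smallest value that 4 against 4 libraries allow.

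Promoter sequence was searched for motifs of factors known in this pathway or in naive T cells. Windows from 250 bases before to 50 bases after a transcription start (RefSeq, GRCm38.p6) were at hand for 5 of the 10 members, *Tgfb1*, *Tgfbr1*, *Tgfbr2*, *Smad3*, and *Ski*. They were searched on both strands for CAGAC (reverse GTCTG), the short box that SMAD3 and SMAD4 bind, and for GTAAAC (reverse GTTTAC), the core of sites that forkhead factors bind. These motifs do not overlap each other in the windows, and 49.6% of all 32851 promoter windows held the first and 7.89% the second. The *Tgfbr2* window held each once and is shown because this receptor had the highest WT level of the members per exon length. An inner start of *Tgfbr1*, a member that did not pass, held the first as well and is shown beside it. In these stretches of the gene's strand, 5′ to 3′, the capitals mark the motif.
Tgfbr2, CAGAC at -160 from the start, chr9:116175509-116175533: acttggagccCAGACttggcggggt
Tgfbr2, GTAAAC on the reverse strand at -229, chr9:116175577-116175602: aaggaaagtgGTTTACaccactttcg
Tgfbr1, CAGAC at -203 from an inner start, chr4:47386003-47386027: tcgaactcagCAGACagccccacgg

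Neither motif was found in the windows of *Tgfb1*, *Smad3*, or *Ski*, of which *Smad3* and *Ski* were lower in DKO-severe. A match is a description of the letters in the window and not of binding.

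*Tgfbr3* (chr5:107106570-107289629) encodes betaglycan, a coreceptor that presents the ligand to TGFBR2 and can be shed in a soluble form that captures it. It was at 172.1, 150.0, 113.4, and 111.9 CPM for WT, 98.67, 73.95, 77.85, and 59.93 CPM for DKO-moderate, and 40.66, 31.6, 22.71, and 41.0 CPM for DKO-severe. The 3 groups formed separate steps, and the DKO-severe mean was 24.8% of the WT mean. *Tgfbr3* had log2 fold changes of -2.01 in DKO-severe (SE 0.22, edgeR adjusted p = 2.22e-05), -0.82 in DKO-moderate (SE 0.21, edgeR adjusted p = 0.0192), and -1.19 between the DKO groups (SE 0.21, edgeR adjusted p = 0.00526). The call in DKO-severe against WT held in all 12 fits without 1 library and in all 10 other alternative fits, with log2 fold changes from -2.18 to -1.82. Without WT 1, WT 2, or DKO-moderate 2 the DKO-moderate call was lost (edgeR adjusted p from 0.055 to 0.0655).

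Within a library, a ratio of 2 transcripts does not depend on how libraries are scaled to each other. Reads of *Tgfbr1* per read of *Tgfbr2* were 0.0955, 0.0963, 0.0925, and 0.0781 for WT, 0.124, 0.197, 0.0996, and 0.136 for DKO-moderate, and 0.412, 0.226, 0.256, and 0.274 for DKO-severe. The 3 groups did not overlap, with the type I chain higher relative to the type II chain at each step. *Tgfb3* per read of *Tgfb1* had a median of 0.0208 for WT, 0.072 for DKO-moderate, and 0.0924 for DKO-severe, and only the WT libraries stood apart, the highest of them at 0.0296 and the lowest DKO library at 0.0305.

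*Smad3* (chr9:63646767-63757994), a receptor-activated SMAD that takes part in the induction of *Foxp3*, passed against WT in DKO-severe and not in DKO-moderate. It was at 100.9, 109.0, 121.1, and 120.2 CPM for WT, 121.8, 86.15, 118.1, and 72.7 CPM for DKO-moderate, and 49.13, 82.71, 60.27, and 52.37 CPM for DKO-severe. DKO-moderate 1 and 3 were at the level of WT and DKO-moderate 2 and 4 below it, and every DKO-severe library was below every WT library. The log2 fold change was -0.88 in DKO-severe against WT (SE 0.19, edgeR adjusted p = 0.00194) and -0.18 in DKO-moderate (SE 0.19, edgeR adjusted p = 0.538). The DKO-severe libraries were lower than DKO-moderate too (-0.71, SE 0.19, edgeR adjusted p = 0.0218), with DKO-severe 2 above DKO-moderate 4, and that call was lost without DKO-moderate 1 or 3 or DKO-severe 1, 3, or 4 (edgeR adjusted p from 0.0632 to 0.0781).

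*Smad7*, on chromosome 18, blocks the type I receptor and brings ubiquitin ligases to it, and it had the largest fall of the members above 100 CPM in WT. It was at 266.1, 333.7, 248.3, and 219.5 CPM for WT, 162.2, 96.49, 151.8, and 76.03 CPM for DKO-moderate, and 41.24, 48.95, 52.34, and 50.57 CPM for DKO-severe. Each group was separate from the other 2, and the DKO-severe libraries lay close together. The group means fell to 45.6% of WT in DKO-moderate and to 18.1% in DKO-severe, and the log2 fold changes were -1.13 (SE 0.22, edgeR adjusted p = 0.0046) and -2.47 (SE 0.23, edgeR adjusted p = 1.01e-05). Between the DKO groups it was -1.33 (SE 0.22, edgeR adjusted p = 0.00415). All 3 calls held in each of the 12 fits that left out 1 library.

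Reads of *Smad7* per read of *Smad3* were 2.64, 3.06, 2.05, and 1.83 for WT, 1.33, 1.12, 1.29, and 1.05 for DKO-moderate, and 0.839, 0.592, 0.868, and 0.966 for DKO-severe. The ratio stood above 1 in all WT and DKO-moderate libraries and below 1 in all DKO-severe libraries. In the plot of ratios the groups are apart, and the lowest WT library and the highest DKO-moderate library were at 1.83 and 1.33.

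**Figure D2:**
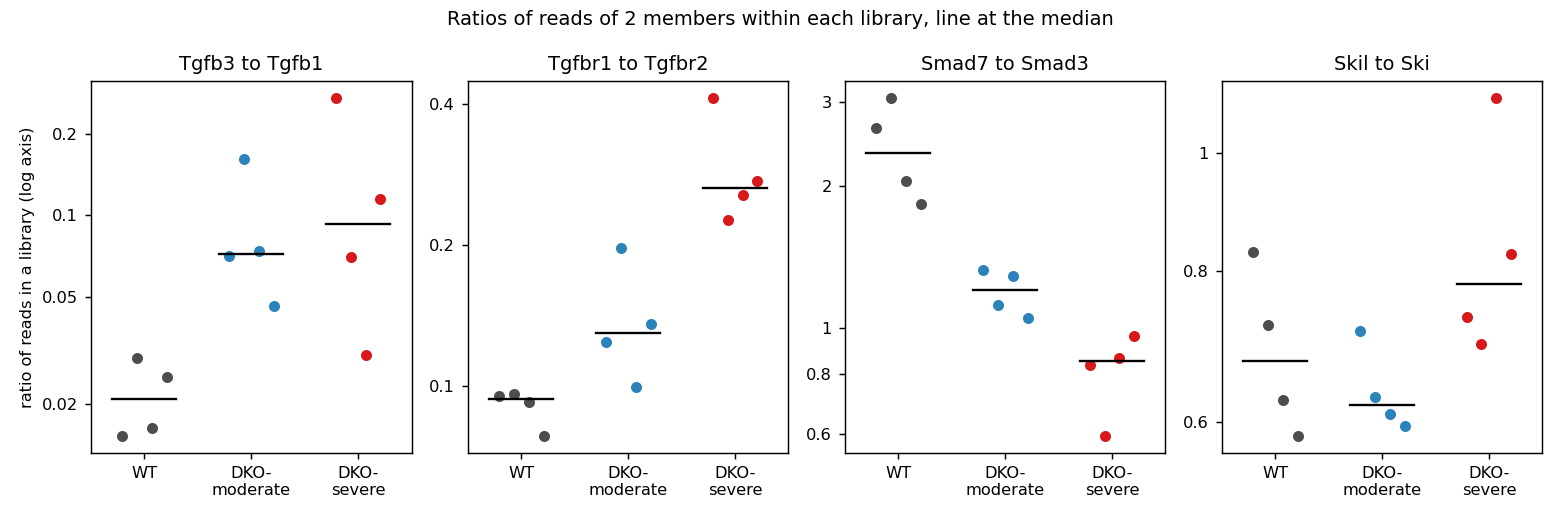
Ratios of the reads of 2 members within each library (vertical axes, log scale), 1 point per library and a line at the group median. *Tgfbr1* to *Tgfbr2* climbs and *Smad7* to *Smad3* falls over the 3 groups without overlap, whereas the ratios of *Skil* to *Ski* overlap.

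Of the corepressors that bind SMAD complexes on DNA, *Ski* (chr4:155154075-155222592) was at 271.7, 293.6, 321.6, and 331.5 CPM for WT, 239.9, 229.3, 288.3, and 180.6 CPM for DKO-moderate, and 214.3, 187.2, 194.1, and 194.7 CPM for DKO-severe. WT and DKO-severe did not overlap, and DKO-moderate reached into both. The log2 fold change was -0.62 in DKO-severe (SE 0.12, edgeR adjusted p = 0.00128) and -0.38 in DKO-moderate (SE 0.12, edgeR adjusted p = 0.0548). The value in DKO-moderate passed with DESeq2 (-0.37, adjusted p = 0.0203) and without DKO-moderate 3 (-0.49, edgeR adjusted p = 0.0127), and DKO-severe against DKO-moderate was -0.25 (SE 0.12, edgeR adjusted p = 0.165).

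*Skil* (chr3:31095058-31122577), the close relative of *Ski* and itself a known target of SMAD3, followed another order. It was at 224.9, 211.6, 201.4, and 193.6 CPM for WT, 171.3, 144.1, 176.0, and 107.6 CPM for DKO-moderate, and 157.1, 130.2, 215.6, and 160.7 CPM for DKO-severe. DKO-moderate lay below WT without overlap, while DKO-severe 3 lay within the WT range. In edgeR neither DKO-moderate (-0.47, SE 0.17, adjusted p = 0.0711) nor DKO-severe (-0.33, SE 0.17, adjusted p = 0.119) passed, and without DKO-severe 3 both did (adjusted p = 0.0412 and 0.0343). Reads of *Skil* per read of *Ski* were 0.584 to 0.828 for WT, 0.596 to 0.714 for DKO-moderate, and 0.696 to 1.11 for DKO-severe, with overlap between all groups. The longest run of bases that both transcripts share is 13, so reads with a single position keep the 2 genes apart.

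*Bambi*, on chromosome 18, encodes a receptor-like protein without a kinase that binds type I receptors and blocks them. It was at 10.26, 14.42, 6.99, and 3.39 CPM for WT, 4.81, 4.57, 2.53, and 1.14 CPM for DKO-moderate, and 0.13, 0.7, 1.02, and 0.14 CPM for DKO-severe, where it rested on 4, 23, 43, and 6 reads. WT and DKO-moderate overlapped, and both were above every DKO-severe library. The DKO-severe mean was 5.7% of the WT mean. *Bambi* had log2 fold changes of -4.11 in DKO-severe (SE 0.73, edgeR adjusted p = 0.000623), -1.42 in DKO-moderate (SE 0.65, edgeR adjusted p = 0.15), and -2.69 between the DKO groups (SE 0.70, edgeR adjusted p = 0.0205). Without DKO-severe 3 the first and last values were -4.71 and -3.28 (edgeR adjusted p = 0.000821 and 0.0224), and without DKO-moderate 1 or DKO-severe 4 the last call was lost (edgeR adjusted p = 0.0572 and 0.0548).

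**Figure D3:**
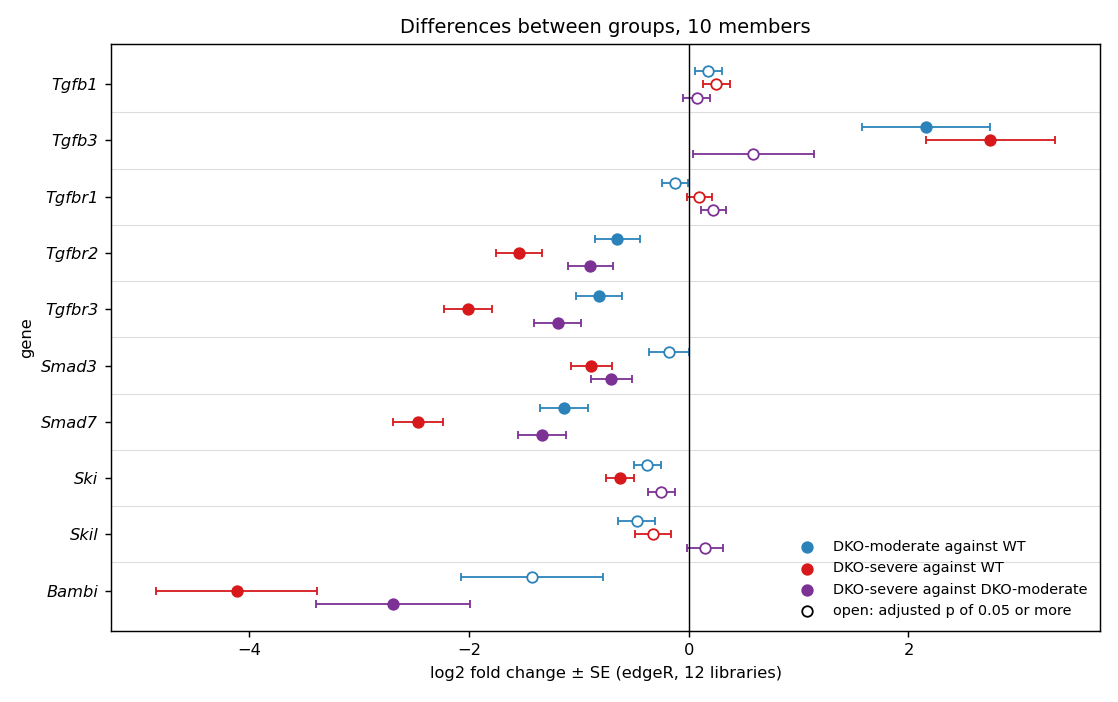
Log2 fold changes with SE (horizontal axis) of the 10 members in the 3 comparisons, from edgeR over 12 libraries, filled where the adjusted p was under 0.05. The values run from -4.11 for *Bambi* to 2.75 for *Tgfb3* in DKO-severe against WT, and the points of *Tgfb1* and *Tgfbr1* are open in all 3 comparisons.

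Within DKO-moderate, libraries 2 and 4 were below libraries 1 and 3 for 7 of the 10 members, *Tgfbr1*, *Tgfbr2*, *Tgfbr3*, *Smad3*, *Smad7*, *Ski*, and *Skil*, of which *Tgfbr1* and *Skil* passed in no comparison. The share of all tested genes with this order was not counted. The first principal component, the axis of widest spread between libraries over the most variable genes, parted the same libraries. DKO-moderate 1 to 4 stood at -17.16, 26.75, -3.32, and 10.01 on it, so the order was not particular to the members. The summed naive T cell genes were ordered like the members, at 5133, 3394, 5514, and 3375 CPM in DKO-moderate 1 to 4. In DKO-severe against WT, 9 of the 10 naive T cell genes were lower with a median log2 fold change of -1.74, and 5 of the 10 were lower in DKO-moderate. Over all tested genes, 25.9% and 4.74% were lower in these comparisons. The part of the naive genes in the differences of the members was not tested.

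All 11 genes of the neutrophil list moved with the severe group as well, but only 1 of 10 in the B cell list passed against WT. The B cell sum of WT 3 (264.7 CPM) lay within the DKO-severe range (70.53 to 438.8 CPM). With terms for both lists in the fit, the DKO-severe calls against WT held for *Tgfbr3* and *Smad7*. They were lost for *Tgfb3* (0.77, SE 0.74, edgeR adjusted p = 0.499), *Tgfbr2* (-0.94, SE 0.32, edgeR adjusted p = 0.0634), *Smad3* (-0.67, SE 0.33, edgeR adjusted p = 0.179), *Ski* (-0.56, SE 0.24, edgeR adjusted p = 0.132), and *Bambi* (-3.50, SE 1.4, edgeR adjusted p = 0.11). Without the terms these values were 2.75 (SE 0.59), -1.55 (SE 0.21), -0.88 (SE 0.19), -0.62 (SE 0.12), and -4.11 (SE 0.73). Every DKO-severe library had a larger neutrophil sum than any other library (at least 10.17 CPM against at most 8.53 CPM). The neutrophil term thus runs close to the group, and the fit cannot part them well. All 5 calls between the DKO groups were lost in that fit, in which SEs were wider (2 members had an unadjusted edgeR p under 0.05, and DESeq2 was not run with these terms), and *Tgfbr2* in DKO-moderate (-0.50, edgeR adjusted p = 0.0906) was lost too. Between the DKO groups, *Tgfbr3* was -1.24 with the terms (SE 0.36, edgeR adjusted p = 0.12) and -1.19 without them (SE 0.21), *Smad3* -0.60 and -0.71, *Smad7* -0.88 and -1.33, *Tgfbr2* -0.45 and -0.90, and *Bambi* -2.17 and -2.69. In the fit with the terms, 2841 genes passed in DKO-severe against WT where 8428 passed without the terms. Without WT 3, the WT library high in B cell genes, and DKO-severe 1 and 2, the libraries high in neutrophil genes, all 7 members kept their calls in DKO-severe against WT. In that fit, chosen after the marker sums were seen, the calls of *Tgfbr2* in DKO-moderate (-0.59, edgeR adjusted p = 0.102) and of *Tgfbr2* (-0.83, edgeR adjusted p = 0.0694) and *Bambi* (-2.47, edgeR adjusted p = 0.0969) between the DKO groups were lost.

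Levels of different genes were compared as CPM per kb of exon. In WT the order was *Tgfbr2* (72.6), *Smad7* (59.0), *Ski* (54.8), *Tgfb1* (23.6), *Skil* (21.4), *Tgfbr3* (20.9), *Smad3* (20.4), *Tgfbr1* (8.22), *Bambi* (1.73), and *Tgfb3* (0.758). *Smad7* overlapped both *Tgfbr2* and *Ski*, which did not overlap each other, these 3 were above all others in every library, the next 4 overlapped, and *Tgfbr1* was below those 4 and above *Bambi* and *Tgfb3*, which overlapped. In DKO-severe *Ski* (35.5) came first in every library, followed by *Tgfb1* (28.1) and *Tgfbr2* (24.8), which overlapped. *Smad7* went from rank 2 in WT to rank 6 (10.7), *Tgfb3* (5.1) overlapped *Tgfbr3* (5.19), and *Bambi* (0.0984) was last. DKO-moderate had *Tgfbr2* (46.2) and *Ski* (42.2) on top, overlapping, and *Tgfb3* (3.39) above *Bambi* (0.643) in every library.

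**Figure D4:**
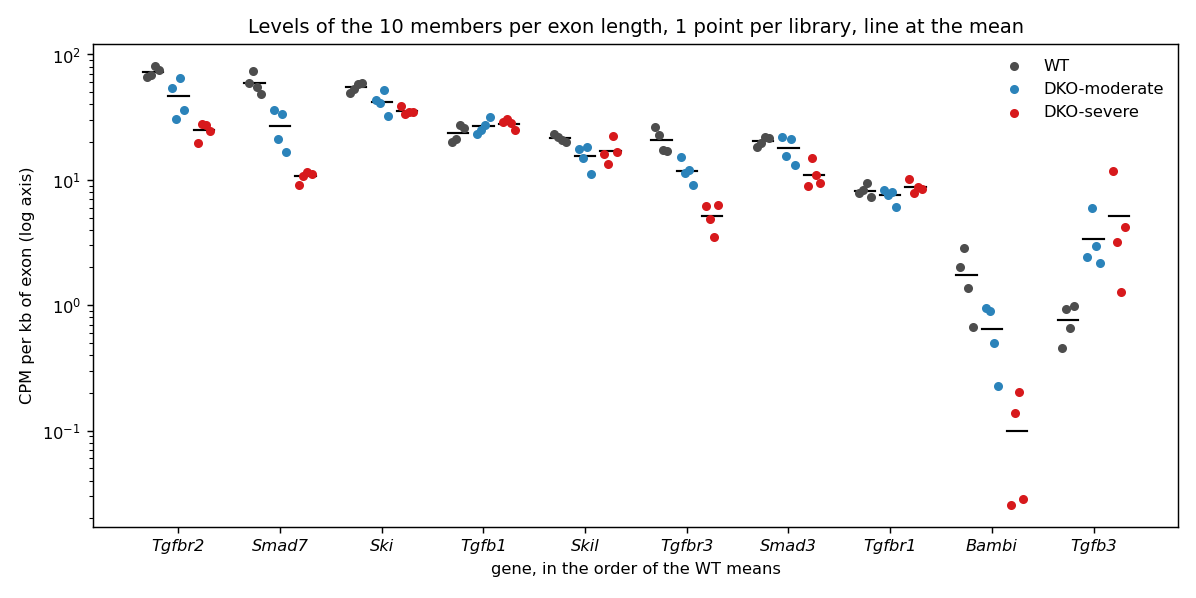
CPM per kb of exon (vertical axis, log scale) of the 10 members, ordered by their WT means, 1 point per library and a line at the group mean. *Tgfbr2*, *Smad7*, and *Ski* lead in WT, and in DKO-severe *Smad7* is at 10.7 and *Bambi* at 0.0984.

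The genes with the most similar profiles were sought among 9987 other genes of at least 5 CPM, by the mean absolute difference of centred log2 CPM over the 12 libraries. *Smad7* was nearest to *Lef1* (0.149), a transcription factor of naive T cells, which averaged 321.6, 166.4, and 61.37 CPM in WT, DKO-moderate, and DKO-severe. *Smad3* was nearest to *Ube2h* (0.082) and *Dnmt3a* (0.085), a DNA methyltransferase, and *Ski* to *Kdm4b* (0.057), a histone demethylase. *Tgfbr3* was nearest to *Ugcg* (0.22) and *Skil* to *Nek1* (0.081).

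Of the members that did not pass, *Tgfb1* was nearest to *Hcls1* (0.083) and *Tgfbr1* to *Larp4b* (0.066). *Tgfb3* (0.365 from *Pcdhgc3*, 0.396 from *Axl*) and *Bambi* (0.506 from *Ppp1r15a*, 0.608 from *Jun*) had their nearest partners farther away. *Jun* and *Ppp1r15a* are genes that respond quickly to stimulation and stress, and their means fell from 410.7 to 47.16 CPM and from 414.3 to 51.82 CPM between WT and DKO-severe. Among the members themselves, the nearest pairs were *Ski* with *Skil* (0.192), *Tgfb1* with *Tgfbr1* (0.214), *Smad3* with *Ski* (0.217), *Tgfbr2* with *Smad3* (0.28), and *Tgfbr3* with *Smad7* (0.319). These are descriptions over 12 libraries that share their groups and carry no test.

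The wider pathway was read from lists of 92 other genes, of which 80 were tested. In DKO-severe against WT, 45 of them passed (26 higher, 19 lower), a share of 56.2% beside 52.6% of all tested genes. In DKO-moderate 22 passed (15 higher, 7 lower), 27.5% beside 17.1%, and between the DKO groups 13 passed (6 higher, 7 lower), 16.2% beside 20.1%. The median log2 fold change over the 80 was 0.04 in DKO-severe, close to that of all tested genes.

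Genes that hold TGF-beta latent or release it were mostly higher. Of 10 tested, 8 rose and 1 fell in DKO-severe, with a median log2 fold change of 1.90, and 5 passed in DKO-moderate, all higher. Over all tested genes, 26.6% were higher and 25.9% lower in DKO-severe, and 12.3% were higher in DKO-moderate. Among the 8, *Ltbp1*, *Ltbp4*, and *Thbs1* had low counts, with means of 0.78, 1.32, and 2.82 CPM in DKO-severe. In WT these means were 0.03, 0.27, and 0.23 CPM. *Lrrc32* did not pass, with means of 0.71 CPM in WT and 0.55 CPM in DKO-severe. All of these were named after their values were seen. *Itgb8*, the integrin subunit that activates latent TGF-beta on T cells and dendritic cells, was at 0.57, 1.26, 1.72, and 3.74 CPM for WT, 12.17, 22.98, 12.35, and 7.6 CPM for DKO-moderate, and 23.75, 32.3, 29.95, and 23.93 CPM for DKO-severe. Its 3 groups did not overlap, and its log2 fold change was 3.90 in DKO-severe (SE 0.50, edgeR adjusted p = 6.06e-05) and 2.91 in DKO-moderate (SE 0.48, edgeR adjusted p = 0.00186). *Ltbp3*, which binds latent TGF-beta in the secreted complex, was at 0.03 to 0.16 CPM in WT, 0.43 to 4.41 CPM in DKO-moderate, and 3.5 to 16.45 CPM in DKO-severe, without overlap between WT and either DKO group (log2 fold change 6.35 in DKO-severe, SE 0.81, edgeR adjusted p = 6.54e-05).

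*Nrp1*, a receptor that can bind latent TGF-beta and marks regulatory T cells, rose by 1.52 on the log2 scale in DKO-severe (SE 0.36, edgeR adjusted p = 0.00391). *Itgav*, the partner chain of *Itgb8*, was outside the rule for named genes and was picked after its values were seen, at a mean of 42.79 CPM for WT, 60.83 for DKO-moderate, and 101.7 for DKO-severe (log2 fold change 1.25, SE 0.13, edgeR adjusted p = 1.95e-05). The 1 gene of the list that fell was *Nrros* (listed as *Lrrc33*), which tethers latent TGF-beta to the surface of myeloid cells, at a mean of 106.6 CPM in WT and 50.13 CPM in DKO-severe (-1.09, SE 0.18, edgeR adjusted p = 0.000349). *Itgb8* and *Ltbp3* kept their calls in DKO-severe without WT 3, DKO-severe 1, and DKO-severe 2.

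Among 8 other ligands tested, 3 passed in DKO-severe, all higher, where 26.6% of all tested genes were higher. The most abundant was *Mstn*, which encodes myostatin, a ligand of activin receptors known from muscle. It had 2 reads in all WT libraries together, 594 in DKO-moderate, and 1872 in DKO-severe, where the libraries stood at 10.38, 28.28, 12.88, and 1.96 CPM. Per read counted on genes, the ratio to WT was 989 in DKO-severe and 290 in DKO-moderate, with exact 95% intervals of 273 to 8170 and 80.1 to 2400 that cover counting error only. The remaining ligands that passed, *Inha* and *Nodal*, named after their values were seen, stayed under 1 CPM in every group mean.

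The promoter windows of these raised genes are shown beside those of the lowered receptor above, with the same search. CAGAC occurred in all 3, and it occurs in 49.6% of all windows. Among the other raised genes that were searched, *Nrp1* and some windows of *Tgif1* held it. The windows of *Bmpr2*, *Bmpr1a*, *Zeb2*, and *Gzmb*, raised as well, did not. Lowered genes were divided too: *Smurf1*, *Traf6*, *Nrros*, and a window of *Ncor1* held CAGAC, and *Smad1*, *Acvr1b*, *Crebbp*, and *Map3k7* did not. *Ltbp3* and *Mstn* held CAGAC 2 times each, and 1 match per gene is shown. The matches not shown start at -1 in *Ltbp3* and at -244 in *Mstn*.
Itgb8, CAGAC at -196 from the start, chr12:119238458-119238482: cccgcgagtgCAGACaggagcttct
Ltbp3, CAGAC at -58 from the start, chr19:5740832-5740856: tggcatgaacCAGACttggcatggt
Mstn, CAGAC at -120 from the start, chr1:53061510-53061534: tgacttgtgaCAGACagggttttaa

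Of 9 receptors for activin and BMP tested, 4 rose and 2 fell in DKO-severe, a share near the 52.6% of all tested genes that passed. *Acvr1b*, the type I activin receptor that signals to the same SMADs as TGFBR1, was at 74.52 to 78.18 CPM in WT, 31.76 to 53.26 CPM in DKO-moderate, and 15.96 to 23.84 CPM in DKO-severe, in 3 separate steps. Its log2 fold change was -1.94 in DKO-severe (SE 0.16, edgeR adjusted p = 6.47e-06). *Acvrl1*, a type I receptor for BMP9 and for TGF-beta in endothelium, fell by 3.15 on the log2 scale in DKO-severe (SE 0.26, edgeR adjusted p = 6.57e-06), from a mean of 44.36 to 5.0 CPM. The BMP receptors *Bmpr2* (2.14, SE 0.25, edgeR adjusted p = 3.27e-05) and *Bmpr1a* (0.92, SE 0.31, edgeR adjusted p = 0.0256) were higher, from WT means of 4.87 and 3.73 CPM.

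Of the 4 other SMAD genes tested, *Smad4*, the shared partner of all receptor-activated SMADs, fell by 0.79 in DKO-severe (SE 0.14, edgeR adjusted p = 0.000481) and by 0.50 in DKO-moderate (SE 0.13, edgeR adjusted p = 0.0248), both on the log2 scale. *Smad1*, a SMAD of BMP signaling, fell by 1.36 in DKO-severe (SE 0.19, edgeR adjusted p = 0.00013). *Smad2*, the partner of *Smad3*, averaged 82.98, 75.79, and 85.45 CPM in WT, DKO-moderate, and DKO-severe (log2 fold change 0.04 in DKO-severe, edgeR adjusted p = 0.695). *Smad5* averaged 71.76, 64.89, and 76.98 CPM (0.10, edgeR adjusted p = 0.397). The last 2 were named after their values were seen.

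Regulators of receptors and SMADs were also divided, with 6 higher and 8 lower among 21 tested in DKO-severe and a median log2 fold change of -0.03. That is a share of 66.7% passed, beside 52.6% of all tested genes. Of the ubiquitin ligases that work with SMAD7 or on SMADs, *Nedd4l* fell from a mean of 33.51 CPM in WT to 4.5 CPM in DKO-severe (-2.90, SE 0.38, edgeR adjusted p = 7.34e-05) and *Smurf1* from 89.9 to 45.24 CPM (-0.99, SE 0.11, edgeR adjusted p = 2.5e-05). *Smurf2* fell as well (-0.99, edgeR adjusted p = 0.00123), and *Wwp1* (-0.06, edgeR adjusted p = 0.796) and *Rnf111* (-0.31, edgeR adjusted p = 0.0616) did not pass, all 3 named after their values were seen. *Sik1*, a kinase that acts with SMAD7 on the type I receptor, fell from 76.51 to 13.66 CPM (-2.49, SE 0.38, edgeR adjusted p = 0.000237).

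The higher regulators included negative ones. *Pmepa1*, which holds SMADs away from the receptor, was at 12.56 to 19.13 CPM in WT and 25.51 to 58.68 CPM in DKO-severe (1.44, SE 0.24, edgeR adjusted p = 0.000435). *Ldlrad4* (listed as *D18Ertd653e*), its relative with a like role, rose by 1.14 on the log2 scale (SE 0.18, edgeR adjusted p = 0.000223), and *Tgif1*, a corepressor of SMADs, by 0.87 (SE 0.18, edgeR adjusted p = 0.00139). In DKO-moderate *Ldlrad4* alone of these 3 passed (0.71, edgeR adjusted p = 0.016).

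Of 8 nuclear cofactors tested, 2 rose and 4 fell in DKO-severe, beside 26.6% higher and 25.9% lower over all tested genes. *Zeb2*, a SMAD-binding repressor found in effector T cells, went from a mean of 3.55 to 15.8 CPM (2.15, SE 0.57, edgeR adjusted p = 0.00784), and its relative *Zeb1* from 75.47 to 45.12 CPM (-0.74, SE 0.15, edgeR adjusted p = 0.00121). The coactivator *Crebbp* fell by 0.95 on the log2 scale (SE 0.23, edgeR adjusted p = 0.00485), the corepressor *Ncor1* by 0.44 (SE 0.14, edgeR adjusted p = 0.0172), and *Hdac1* rose by 0.22 (SE 0.07, edgeR adjusted p = 0.0211). In the TAK1 branch, a route of TGF-beta signaling that does not use SMADs, *Traf6* (-0.56, edgeR adjusted p = 0.00503) and *Map3k7* (-0.27, edgeR adjusted p = 0.0183), which encodes TAK1, were lower among 5 tested. Over all tested genes 25.9% were lower.

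**Figure D5:**
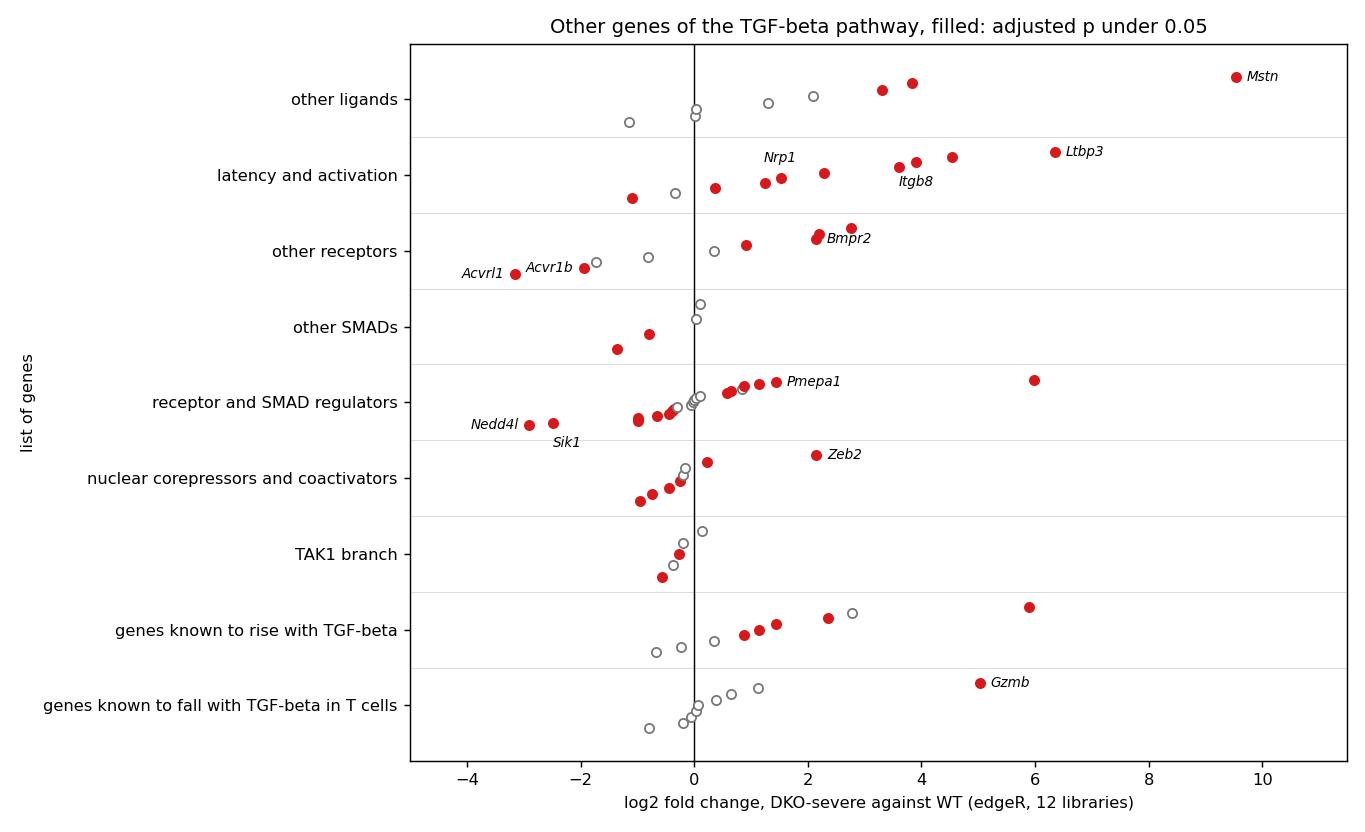
Horizontal axis, log2 fold change of DKO-severe over WT for the tested genes in 9 lists of the wider pathway, 1 point per gene, filled red where the adjusted p was under 0.05 and open otherwise. Among the genes of latency and activation, 8 of 10 lie above 0 and are filled, up to 6.35 for *Ltbp3*, and *Acvrl1* at -3.15 and *Nedd4l* at -2.90 are the farthest below 0 among filled points.

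Genes that other studies place downstream of TGF-beta and that passed in DKO-severe were all higher, both those known to rise with it and those known to fall. Of 9 tested that are known to rise with TGF-beta, 5 passed in DKO-severe, all higher, where 26.6% of all tested genes were higher. The median log2 fold change over the 9 was 1.14, and 3 of these 5 are the regulators *Pmepa1*, *Ldlrad4*, and *Tgif1* above. *Cdkn2b*, a cell cycle inhibitor that was named after its values were seen, also passed, with means of 0.94 CPM in DKO-severe and 0.18 CPM in WT. *Itgae*, the integrin chain that TGF-beta induces on T cells in tissues, averaged 5.09, 5.92, and 4.36 CPM in WT, DKO-moderate, and DKO-severe (log2 fold change -0.23 in DKO-severe, edgeR adjusted p = 0.712), and was also named after its values were seen. Of 9 tested that are known to fall with TGF-beta in T cells, only *Gzmb*, a granzyme of cytotoxic cells, passed in DKO-severe, and it was higher. Summed NK cell genes were 26.03 to 50.65 CPM in WT, 77.38 to 208.9 CPM in DKO-moderate, and 43.25 to 179.9 CPM in DKO-severe, and their part was not tested. *Gzmb* was at 1.19 to 3.45 CPM in WT, 6.21 to 36.22 CPM in DKO-moderate, and 24.96 to 128.8 CPM in DKO-severe (5.03, SE 0.70, edgeR adjusted p = 0.000109). The lists come from background knowledge, and receptor protein, SMAD phosphorylation, and free TGF-beta were not measured.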

How the data were processed

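RNA was sequenced from 12 libraries, 4 per group, of CD4+ YFP(FOXP3)- T cells. The authors prepared directional libraries, ran STAR 2.7.11 against the mouse genome mm10, dropped reads with more than 1 position, and used htseq-count in its reverse-stranded mode (annotation not given in the sources used here). The deposited values are these raw counts, not normalized. The authors tested them with DESeq2. Sequence shared by several genes thus goes uncounted, while a gene and its antisense partner are separated. Records not assigned to a gene (18.53% to 23.73% of a library) were not used. The labels number the libraries of a group but do not say that each came from its own mouse, so p-values measure the spread between these samples, which may be partly technical. The 10 members and all gene lists were chosen with earlier results of these data known.

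Genes with 10 or more reads in total in some condition were tested with edgeR 4.0.16 in R 4.3.3 (TMM scaling, quasi-likelihood test, group as the only term, Benjamini-Hochberg adjustment over 16035 genes). Standard errors (SE) were computed as the size of the log2 fold change over the square root of the F statistic. Exact permutation tests on CPM were two-sided, with a smallest p of 0.029 for 4 against 4 libraries. CPM per kb used the exon length of the GENCODE annotation of GRCm38. Named from each wider list were up to 3 genes in each direction with the largest changes on the log2 scale between DKO-severe and WT, past the threshold and at 5 CPM or more in the higher group mean. Profiles were compared on log2 CPM with a prior count of 2, each gene centred on its mean.

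Other tools were DESeq2 1.42.0 and limma 3.58.1 (voom, sample quality weights). Within edgeR, the scaling (size factors of DESeq2, or library sizes without factors), the filter (none, filterByExpr), and the libraries in the fit (the compared groups alone) were varied, and further fits had the replicate number as a block, terms for the neutrophil and B cell lists, a threshold of 0.01, and leaving out each library in turn. A fit without WT 3, DKO-severe 1, and DKO-severe 2 was chosen after seeing the data. Each tool was checked on simulated counts of 15633 genes, of which 200 were changed, all at 5 CPM or more, with the spread that edgeR estimated. In the data 52.6% of tested genes passed in DKO-severe against WT, so the simulated rates need not hold there. In the simulated DKO-severe against WT, edgeR recovered 78% of the changed genes with a log2 fold change of 1 and 99% of those with 2, with 3.3% false calls, DESeq2 89% and 100% with 17.8%, and limma voom 76% and 98% with 3.9%. Python 3.11.15 (scipy 1.17.1, numpy 2.4.6, pandas 2.3.3, matplotlib 3.10.9) was used for the tables and plots. Methylation and single-cell data were not analysed here. Some genes are not reported here.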

Additional observations from a re-analysis of the deposited data

How the results depend on the processing

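Of 360 log2 fold changes of members with 1 library left out, 333 kept their direction and side of the threshold, 22 lost a call, 4 gained one, and 1 turned, and of 300 under the other alternatives 268 kept both, 17 lost a call, 10 gained one, and 5 turned. With 1 library left out, 7 to 8 members passed in DKO-severe against WT, 1 to 5 in DKO-moderate against WT, and 3 to 6 in DKO-severe against DKO-moderate, and 40 to 46, 13 to 23, and 5 to 16 of the wider pathway genes. In DKO-moderate 1 member passed without WT 1, WT 2, or DKO-moderate 2 and 2 without WT 3, and 13 and 14 wider genes without WT 1 and WT 2. Between the DKO groups 3 members passed without DKO-moderate 1 or DKO-severe 4, and 5, 6, and 6 wider genes without DKO-moderate 1, DKO-moderate 3, and DKO-severe 3. With neutrophil and B cell terms, 2, 3, and 0 members passed in edgeR in the 3 comparisons (5, 6, and 2 at an unadjusted p under 0.05), and 20 wider pathway genes in DKO-severe against WT and 0 between the DKO groups (32 and 12 unadjusted). The neutrophil sums set every DKO-severe library apart from all others, so these terms run close to that group. DESeq2 and limma were not run with these terms. At an adjusted p under 0.01, 1 member and 11 wider genes passed in DKO-moderate, and 2 members and 4 wider genes between the DKO groups. There, 24 wider genes passed with DESeq2 and 36 with limma voom (13 in edgeR), and 3 members without WT 3, DKO-severe 1, and DKO-severe 2. In exact permutation tests on CPM scaled by library size alone, *Tgfb1* in DKO-severe against WT (difference 39.4 CPM) and *Tgfbr1* in DKO-severe against DKO-moderate (12.66 CPM, and 11.18 CPM with DESeq2's size factors) reached p = 0.029. Scaling by library size moved the median over all tested genes from -0.01 to 0.18 on the log2 scale in DKO-severe against WT, and the share of higher calls from 50.7% to 66.5% there and from 46.9% to 64.9% between the DKO groups (59.6% with DESeq2's size factors).

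Directions turned only for values that did not pass. Between the DKO groups *Tgfb1* was -0.09 with neutrophil and B cell terms and -0.01 without the 3 libraries, *Tgfb3* -0.94 and -0.29 in the same fits and -0.22 without DKO-severe 1 (-0.22 to 1.01 over the fits without 1 library), and *Skil* in DKO-severe against WT 0.09 with the terms. Also with the terms, *Mstn* was -0.10, *Zeb1* 0.00, *Ncor1* 0.07, and *Map3k7* 0.01 between the DKO groups. *Map3k7* was 0.03 with DESeq2, its size factors, or without DKO-severe 4, and 0.06 with library size alone, and *Hdac1* was -0.01 without DKO-moderate 2. Over the fits without 1 library *Map3k7* ranged from -0.06 to 0.03 and *Hdac1* from -0.01 to 0.12. The cause was not tested.

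With the replicate number as a block, 7, 4, and 5 members passed in the 3 comparisons and 45, 18, and 12 wider pathway genes, against 45, 22, and 13 without it. The numbers name the samples and were not treated as pairs. Residuals of libraries with the same number correlated at -0.27 to 0.21 (12 pairs) and of different numbers at -0.32 to 0.30 (36 pairs), and 2 of the 12 libraries correlated best with one of their own number.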
